A study of Mus musculus with 10 samples.

Results

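The inward rectifier and GIRK potassium channel genes described here, 10 in all, were followed through the 10 libraries of a study of striatal cholinergic neurons. They were chosen by symbol from a fixed list, Kcnj2, Kcnj3, Kcnj4, Kcnj5, Kcnj6, Kcnj9, Kcnj10, Kcnj11, Kcnj12 and Kcnj16, and all 10 were found among the 32531 genes of the count tables. The mice were adult Chat-TRAP DW167 animals, in which a fluorescent ribosomal protein is made under the control of Chat, so that ribosomes of cholinergic neurons can be pulled out of homogenised whole striatum with antibodies. All groups carried this transgene. Immunopurified ribosome-bound RNA came from animals that self-administered cocaine, from yoked controls and from animals that self-administered saline, with 3 libraries each, and 1 input library held total striatal RNA of saline animals without purification. The labels say neither what the yoked animals received nor whether a library stands for 1 animal or a pool, so p values measure the spread between these libraries, which may be technical.

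Inward rectifiers pass potassium more easily into the cell than out of it and hold the resting potential near the potassium equilibrium. GIRK channels, assembled from the subunits encoded by Kcnj3, Kcnj5, Kcnj6 and Kcnj9, open when beta-gamma subunits of Gi/o proteins bind them, and so turn receptor signals into inhibition. The Kir2 channels of Kcnj2, Kcnj4 and Kcnj12 are strongly rectifying and active at rest, Kcnj11 forms the pore of ATP-sensitive channels, and Kcnj10 and Kcnj16 form the glial channels that clear potassium. Nearly all of these channels need the membrane lipid PIP2 to stay open. Cholinergic interneurons fire without synaptic drive, and their inward rectifiers bear on the pauses and bursts of that firing.

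The immunopurified libraries held 24526765 to 75220922 gene counts each and the input 40912230. Levels are given as CPM, a gene's counts per 1000000 gene counts of the library, and they were not compared between genes, because transcript lengths were not used here. Chat averaged 550 ± 65.1 CPM in saline immunopurified RNA (SD, n = 3) and 10.1 CPM in the input, and all 10 cholinergic markers were at least 2-fold higher after purification in each saline library. The labels give lane 4 for cocaine and yoked, lane 3 for saline and lane 5 for the input, so a group difference from saline or from the input cannot be told apart from a lane difference. The libraries numbered 2 stood apart from the others in several members, and results that rest on them are given with and without them. They were not alike in their reads. Saline and yoked library 2 had 36.4% and 36.3% of reads not uniquely aligned, the lowest of the immunopurified libraries and near the 35.4% of the input. Cocaine library 2 had 56.2% and the most gene counts of all.

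Setting immunopurified RNA against the input asked which channel genes cholinergic ribosomes carry more or less of than whole striatum. Kcnj12 was the 1 member that was higher, 9.25-fold in saline libraries, while Kcnj2, Kcnj4, Kcnj6, Kcnj10 and Kcnj16 were 5.66 to 9.16-fold lower. Kcnj3, Kcnj9 and Kcnj11 lay near the input. Kcnj5, at low counts, lay below the input in some libraries of each group and above it in others. A gene was counted when its CPM was at least 2-fold above or below the input in each of the 3 libraries of a group. In the cocaine libraries 1 of 10 members was higher by this rule, against 11.7% of 15991 measured genes, and 4 were lower, against 22.3%. For yoked libraries 1 member was higher (12.1% of 15985 genes) and 4 were lower (21.9%), and in the saline libraries 1 was higher (12.2% of 15888 genes) and 5 were lower (23.1%). All 3 groups share the 1 input library, which has no replicate, so no p value was computed. In bulk RNA of this kind, fewer cells of a type and less RNA per cell cannot be told apart.

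**Figure D1:**
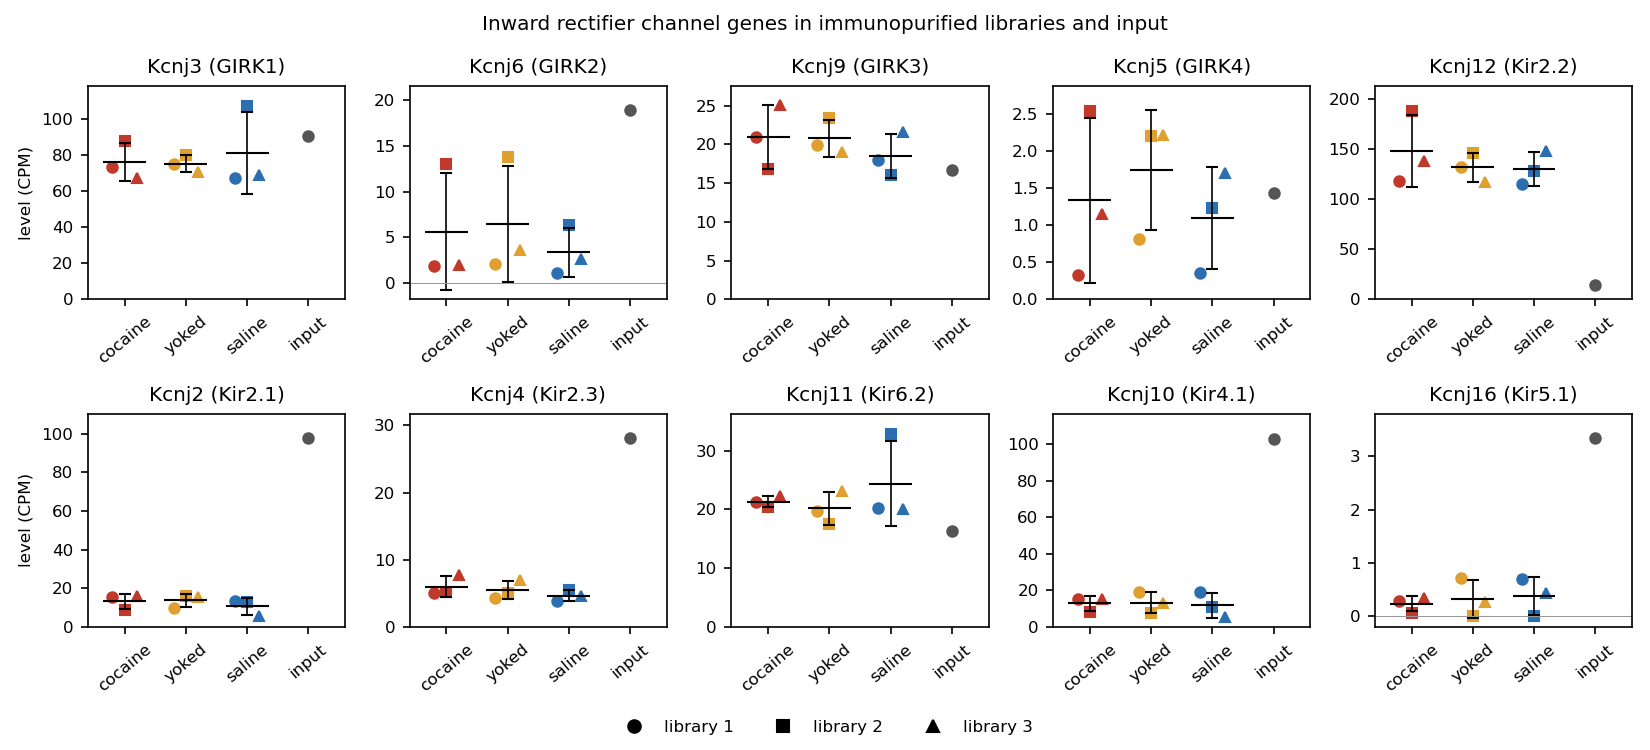
Level of each channel gene in CPM (linear axes from 0 or just below) in the 3 cocaine, 3 yoked and 3 saline immunopurified libraries and the 1 input library; symbols mark the library number, horizontal lines the group mean and bars the SD. Kcnj12 lay at 115 CPM or more in every immunopurified library against 14.1 CPM in the input, and Kcnj2, Kcnj4, Kcnj10 and Kcnj16 lay far below the input in all 9.

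Kcnj3 encodes GIRK1, a subunit that needs a partner to reach the membrane (chromosome 2, 55411798 to 55598145, mm10). It measured 73.7, 88.0 and 67.2 CPM for cocaine libraries 1 to 3, 75.2, 80.2 and 70.8 CPM for yoked libraries 1 to 3, 67.3, 107 and 69.3 CPM for saline libraries 1 to 3 and 90.7 CPM in the input. Library 2 was the highest of each group, the groups overlapped, and saline library 2 was the 1 immunopurified library above the input. Its log2 ratio to the input was −0.25 ± 0.20 for cocaine, −0.27 ± 0.090 for yoked and −0.16 ± 0.38 for saline libraries (log2 of the mean CPM over input CPM, with the SD of the library log2 ratios, n = 3 each). In the order of all measured genes, 50.6% had a higher ratio in saline libraries, which puts Kcnj3 at the middle.

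Kcnj6 encodes GIRK2, the subunit that can form channels on its own in neurons (chromosome 16, 94744980 to 94997696). It measured 1.83, 13.0 and 1.97 CPM for cocaine libraries 1 to 3, 2.13, 13.7 and 3.57 CPM for yoked libraries 1 to 3, 1.05, 6.33 and 2.66 CPM for saline libraries 1 to 3 and 19.0 CPM in the input. Library 2 was the highest and library 1 the lowest in each group, and the highest was 7.08, 6.45 and 6.01 times the lowest in cocaine, yoked and saline, a pattern picked out after the values were seen. This was the widest relative spread of the 10 genes over the immunopurified libraries, with a coefficient of variation of 95.4%, against 14.9% for Kcnj9. The log2 ratio to the input was −3.37, −0.55 and −3.27 for cocaine libraries 1 to 3, −3.16, −0.47 and −2.41 for yoked libraries and −4.17, −1.58 and −2.83 in the saline libraries. Kcnj6 therefore counted as at least 2-fold lower in saline, where the log2 ratio was −3.35 without library 2, and did not count in cocaine and yoked, where library 2 alone fell short. The log2 ratio of the mean was −1.76 for cocaine and −1.55 for yoked, and without library 2 it was −3.32 for cocaine and −2.74 for yoked. Of 6 markers of cortical glutamatergic neurons, all were at least 2-fold below the input in the cocaine, yoked and saline libraries alike. Their summed level was 36.5, 33.8 and 17.5 CPM in the cocaine, 18.5, 28.2 and 7.28 CPM for yoked libraries and 18.4, 29.1 and 15.2 CPM in the saline libraries, and 403 CPM in the input. That sum was highest in library 2 for yoked and saline, as Kcnj6 was, but in library 1 for cocaine, where Kcnj6 was lowest. The mean log2 ratio of Kcnj6 in saline libraries, −2.50, lay above the range of these markers, from −5.06 to −3.97. It lay inside the ranges of the general spiny neuron markers, −3.91 to −1.57, and of the astrocyte markers, −4.38 to −1.42. Emx1 was at 0 in at least 1 immunopurified library, and the part of any of these cells in the level of Kcnj6 was not tested.

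Kcnj9 encodes GIRK3, a subunit that directs GIRK channels within the cell (chromosome 1, 172320508 to 172329322). It measured 20.9, 16.8 and 25.0 CPM for cocaine libraries 1 to 3, 19.9, 23.4 and 19.0 CPM for yoked libraries 1 to 3, 17.9, 16.0 and 21.6 CPM for saline libraries 1 to 3 and 16.7 CPM in the input. The groups overlapped, and 8 of the 9 immunopurified libraries lay above the input, all but saline library 2. The log2 ratio was 0.33 ± 0.29 for cocaine, 0.32 ± 0.16 for yoked and 0.15 ± 0.22 for saline (SD, n = 3 each).

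Kcnj5 encodes GIRK4, best known from the atrium of the heart, where it joins GIRK1 (chromosome 9, 32314706 to 32344380). Its counts were low, from 8 to 191 in the immunopurified libraries and 59 in the input. They amounted to 0.326, 2.54 and 1.15 CPM for cocaine libraries 1 to 3, 0.818, 2.21 and 2.22 CPM for yoked libraries 1 to 3, 0.351, 1.24 and 1.71 CPM for saline libraries 1 to 3 and 1.44 CPM in the input. Library 1 was the lowest of each group and the groups overlapped. For cocaine the log2 ratio of −0.11 was −0.96 without library 2. The ratio of summed saline counts to the input, scaled by library totals, was 0.839 with an exact 95% counting interval of 0.610 to 1.17. That interval covers the reads and not the spread between libraries, which was wide. The log2 ratio was −2.14, 0.82 and −0.32 for cocaine libraries 1 to 3 and −0.82, 0.61 and 0.62 for yoked libraries. For saline libraries it was −2.04, −0.22 and 0.25. Each group thus had libraries on both sides of the input, and no common direction was seen.

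Within the Kir2 genes the ratio to the input went in opposite directions. Kcnj12, which encodes Kir2.2 (chromosome 11, 61022564 to 61073269), measured 119, 189 and 138 CPM for cocaine libraries 1 to 3, 133, 147 and 117 CPM for yoked libraries 1 to 3, 115, 128 and 149 CPM for saline libraries 1 to 3 and 14.1 CPM in the input. All 9 immunopurified libraries were far above the input, the 3 groups overlapped, and cocaine library 2 was the highest. The log2 ratio was 3.39 ± 0.34 for cocaine, 3.23 ± 0.16 for yoked and 3.21 ± 0.19 for saline (SD, n = 3 each), or 10.5, 9.36 and 9.25-fold. Summed saline counts were 9.45 times the input, with a counting interval of 8.69 to 10.3 that covers the reads and not the spread between libraries. Of the 15888 measured genes, 317 (2.0%) had a higher ratio in saline libraries than Kcnj12. Its log2 ratio lay above that of Isl1, the lowest of the 10 cholinergic markers at 2.51, and below their median of 5.54.

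Kcnj2 encodes Kir2.1, a main resting conductance of spiny projection neurons, the principal cells of the striatum (chromosome 11, 111066164 to 111076825). It measured 15.4, 8.77 and 16.0 CPM for cocaine libraries 1 to 3, 9.71, 16.1 and 15.6 CPM for yoked libraries 1 to 3, 13.3, 13.2 and 5.49 CPM for saline libraries 1 to 3 and 97.6 CPM in the input. The lowest libraries were cocaine 2, yoked 1 and saline 3, and the groups overlapped. Its log2 ratio was −2.87 ± 0.48, −2.82 ± 0.41 and −3.20 ± 0.73 for cocaine, yoked and saline. Kcnj4, which encodes Kir2.3 (chromosome 15, 79480226 to 79512511), measured 5.01, 5.17 and 7.77 CPM for cocaine libraries 1 to 3, 4.35, 5.1 and 6.99 CPM for yoked libraries 1 to 3, 3.90, 5.50 and 4.63 CPM for saline libraries 1 to 3 and 28.2 CPM in the input. Library 1 was the lowest of each group, and the log2 ratio was −2.23 ± 0.35, −2.36 ± 0.35 and −2.59 ± 0.25 for cocaine, yoked and saline. Kcnj12 was thus above the input in all 9 libraries in which both of its Kir2 relatives were below it.

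The ratios of Kcnj2 and Kcnj4 lay inside the range of 10 general markers of spiny neurons, from −3.91 to −1.57 with a median of −3.03 ± 0.64 in saline libraries (SD of the library medians, n = 3). All 10 of these markers were at least 2-fold lower in the saline libraries, and none was at 0 in any library. Their summed level was 1997, 1053 and 1667 CPM for cocaine libraries 1 to 3, 1779, 1438 and 1719 CPM for yoked libraries 1 to 3, 2268, 1202 and 1020 CPM for saline libraries 1 to 3 and 12558 CPM in the input. In the cocaine and saline groups the library with the lowest sum was also the lowest for Kcnj2, which was not so in the yoked group. The sum of the astrocyte markers given below was lowest in the same library of each group. The ratios of Kcnj2 and Kcnj4 also lay inside the range of 10 astrocyte markers, from −4.38 to −1.42 in saline libraries. How much of the remaining Kcnj2 and Kcnj4 came from spiny neurons was not tested.

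Kcnj11 encodes Kir6.2, which closes when ATP is plentiful and so ties excitability to metabolism (chromosome 7, 46097123 to 46100952). It measured 21.3, 20.4 and 22.3 CPM for cocaine libraries 1 to 3, 19.8, 17.6 and 23.1 CPM for yoked libraries 1 to 3, 20.3, 32.7 and 20.1 CPM for saline libraries 1 to 3 and 16.3 CPM in the input. All 9 immunopurified libraries lay above the input, the groups overlapped, and saline library 2 was the highest. The log2 ratio was 0.39 ± 0.066 for cocaine, 0.30 ± 0.20 for yoked and 0.58 ± 0.40 for saline (SD, n = 3 each), and saline library 2 was the 1 library past 2-fold. Abcc8, the sulfonylurea receptor that pairs with Kir6.2 in neurons, averaged 4.68 ± 2.48 CPM in saline libraries and 5.18 CPM in the input. Abcc9, the receptor of vascular and muscle channels, had 3, 11 and 8 counts for cocaine libraries 1 to 3, 66, 3 and 21 for yoked libraries, 1, 0 and 19 for saline libraries and 136 in the input. The mean CPM was 18.5-fold lower than the input for cocaine, 4.83-fold for yoked and 20.3-fold for saline. Single libraries carried the yoked and saline values: without yoked library 1 the yoked value was 7.70-fold, and without saline library 3 a single count remained, a ratio to the input of 0.0053 with a counting interval of 0.00013 to 0.030.

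Kcnj10 encodes Kir4.1, the main potassium channel of astrocytes (chromosome 1, 172341210 to 172374085). It measured 15.1, 8.31 and 15.4 CPM for cocaine libraries 1 to 3, 19.3, 7.64 and 12.8 CPM for yoked libraries 1 to 3, 19.2, 10.6 and 5.44 CPM for saline libraries 1 to 3 and 103 CPM in the input. Every immunopurified library had a log2 ratio of −2.42 or lower, and the groups overlapped. The log2 ratio of the group means was −3.00 ± 0.50, −2.96 ± 0.67 and −3.14 ± 0.91 for cocaine, yoked and saline. Kcnj16 encodes Kir5.1, which forms channels together with Kir4.1 (chromosome 11, 110968033 to 111027968). It had 7, 5 and 10 counts in the cocaine libraries, 39, 0 and 7 for yoked libraries, 18, 0 and 18 for saline libraries 1 to 3 and 137 in the input. A count of 0, read as at most 3 counts, allows up to 0.0988 CPM in yoked library 2 and 0.0955 CPM in saline library 2, against 3.35 CPM in the input. Library 2 was the lowest of each group for Kcnj16, and the ratio of the mean CPM was 14.5-fold lower for cocaine, 10.4-fold for yoked and 8.89-fold for saline. Yoked library 1 held most of the yoked counts, and without it the value was 26.3-fold lower, from 7 counts. The saline value was 15.7-fold lower without library 1, and without library 2 the saline log2 ratio of −3.15 was −2.57.

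The ratios of Kcnj10 and Kcnj16 lay inside the range of 10 astrocyte markers, from −4.38 (S100b) to −1.42 (Aldh1l1) with a median of −3.12 ± 0.69 in saline libraries (SD of the library medians, n = 3). All 10 markers were at least 2-fold lower there, and none was at 0 in any library. Summed over the 10 markers, the level was 546, 348 and 385 CPM for cocaine libraries 1 to 3, 451, 403 and 428 CPM for yoked libraries 1 to 3, 505, 374 and 312 CPM for saline libraries 1 to 3 and 2610 CPM in the input. The library with the lowest Kcnj10 of each group, cocaine 2, yoked 2 and saline 3, was also the lowest for this sum. The same libraries were the lowest of their groups for the summed general markers of spiny neurons, at 1053, 1438 and 1020 CPM. The match was therefore not particular to astrocyte markers. The ratios of Kcnj10 and Kcnj16 also lay inside the range of the general markers of spiny neurons, from −3.91 to −1.57 in saline libraries. The part of astrocyte RNA in the Kcnj10 and Kcnj16 that remained was not tested.

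**Figure D2:**
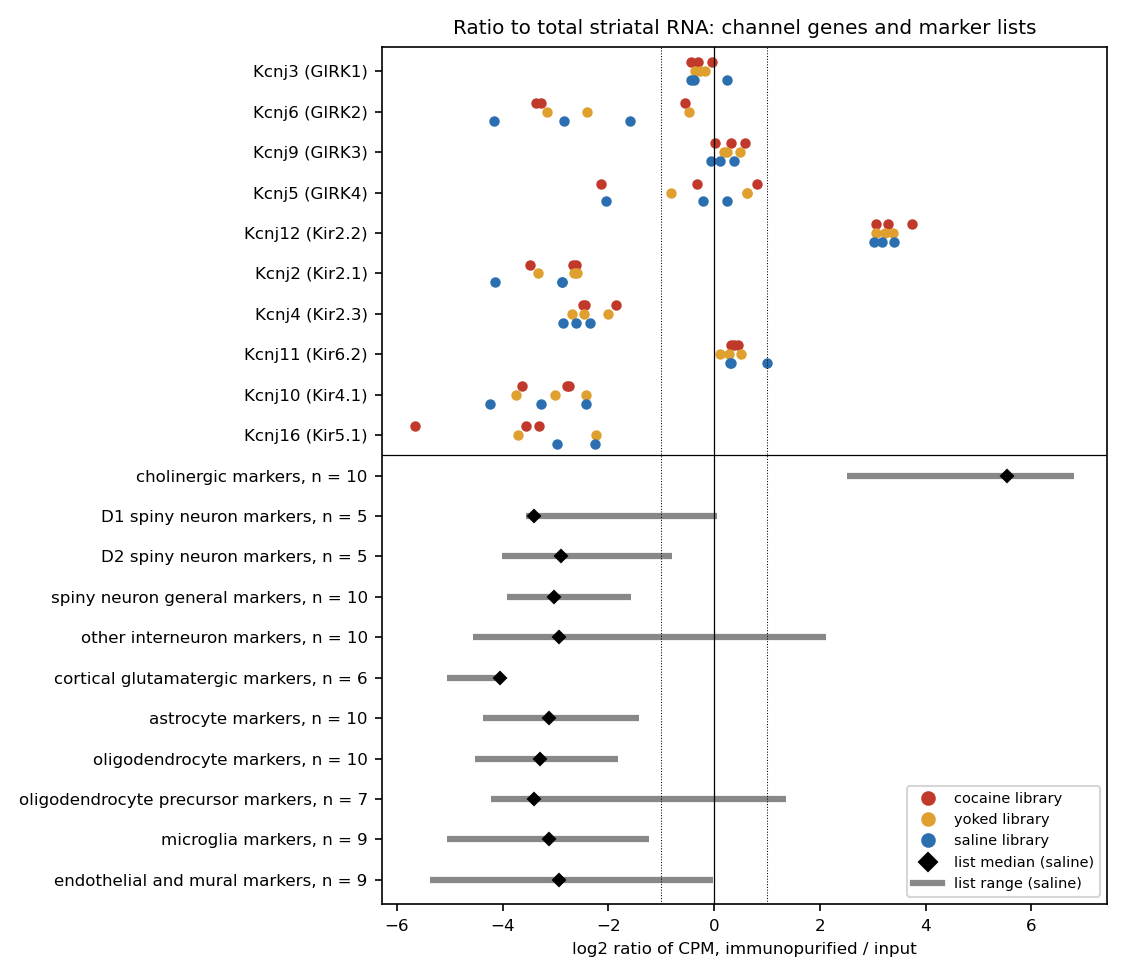
Log2 ratio of CPM in each immunopurified library to the input for the 10 channel genes (points, 3 per group), above the median (diamond) and range (bar) of marker lists in saline libraries; dotted lines mark 2-fold. Kcnj12 lay inside the range of the cholinergic markers. By their mean ratio in saline libraries, Kcnj2, Kcnj4, Kcnj10 and Kcnj16 each lay inside the ranges of both general spiny neuron and astrocyte markers, which overlap. The 2 libraries with 0 counts of Kcnj16, yoked 2 and saline 2, have no point.

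Kcnj9 and Kcnj10 are neighbours on chromosome 1, 11.9 kb apart, and Kcnj16 and Kcnj2 on chromosome 11, 38.2 kb apart. In saline libraries the log2 ratios of Kcnj9 and Kcnj10 were 0.15 and −3.14, and those of Kcnj16 and Kcnj2 were −3.15 and −3.20. No other gene of the reference table overlaps any of the 10, although rows of the count tables without a match in that table have no coordinates here.

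Comparing cocaine with saline self-administration asked whether taking the drug altered the ribosome-bound RNA of these channels. Called members numbered 0 of 10 in edgeR's quasi-likelihood test, against 0.0% of 14989 genes tested, and 0 members had an unadjusted p under 0.05, against 5.28% of genes. DESeq2 on the same genes also called 0. All 10 members passed the filter on low counts. Of the 10, 7 had a log2 fold change above 0 and 3 below, with a median of 0.19 beside 0.0049 over all genes tested. In 0 of 10 members were the cocaine and saline libraries free of overlap, against 10.3% of genes.

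Kcnj12 had the smallest p of the members here. It averaged 149 ± 36.3 CPM in cocaine libraries and 131 ± 16.9 CPM in saline libraries (SD, n = 3), a log2 fold change of 0.21 with a 95% interval of −0.21 to 0.63 (adjusted p = 0.898, edgeR, Benjamini-Hochberg). Without the 3 libraries numbered 2 the log2 fold change was −0.054. Kcnj3 averaged 76.3 ± 10.6 CPM in cocaine libraries and 81.3 ± 22.6 CPM in saline libraries, and the interval of its fold change reached from 0.711 to 1.28. For Kcnj9 the averages were 20.9 ± 4.11 and 18.5 ± 2.82 CPM for cocaine and saline (fold change 0.811 to 1.59), and for Kcnj11 they were 21.3 ± 0.976 and 24.4 ± 7.26 CPM (0.623 to 1.26). Each interval gives the changes that these libraries are compatible with, and each includes no change.

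The other members were less precisely measured. Kcnj6 averaged 5.60 ± 6.40 CPM in cocaine libraries and 3.35 ± 2.71 CPM in saline libraries, a log2 fold change of 0.81 with an interval of −0.98 to 2.61, which was −0.00024 without the 3 libraries numbered 2. Kcnj2 averaged 13.4 ± 3.99 CPM in cocaine libraries and 10.7 ± 4.48 CPM in saline libraries (log2 fold change 0.34, −0.41 to 1.10), and Kcnj4 averaged 5.98 ± 1.55 and 4.68 ± 0.801 CPM (0.36, −0.42 to 1.15). Kcnj10 averaged 12.9 ± 4.0 CPM in cocaine libraries and 11.7 ± 6.93 CPM in saline libraries (0.15, −0.78 to 1.09). For Kcnj5 and Kcnj16, whose counts were low, the interval reached 1.86 and 3.35 to each side of the log2 fold change, so even large changes could not be seen.

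**Figure D3:**
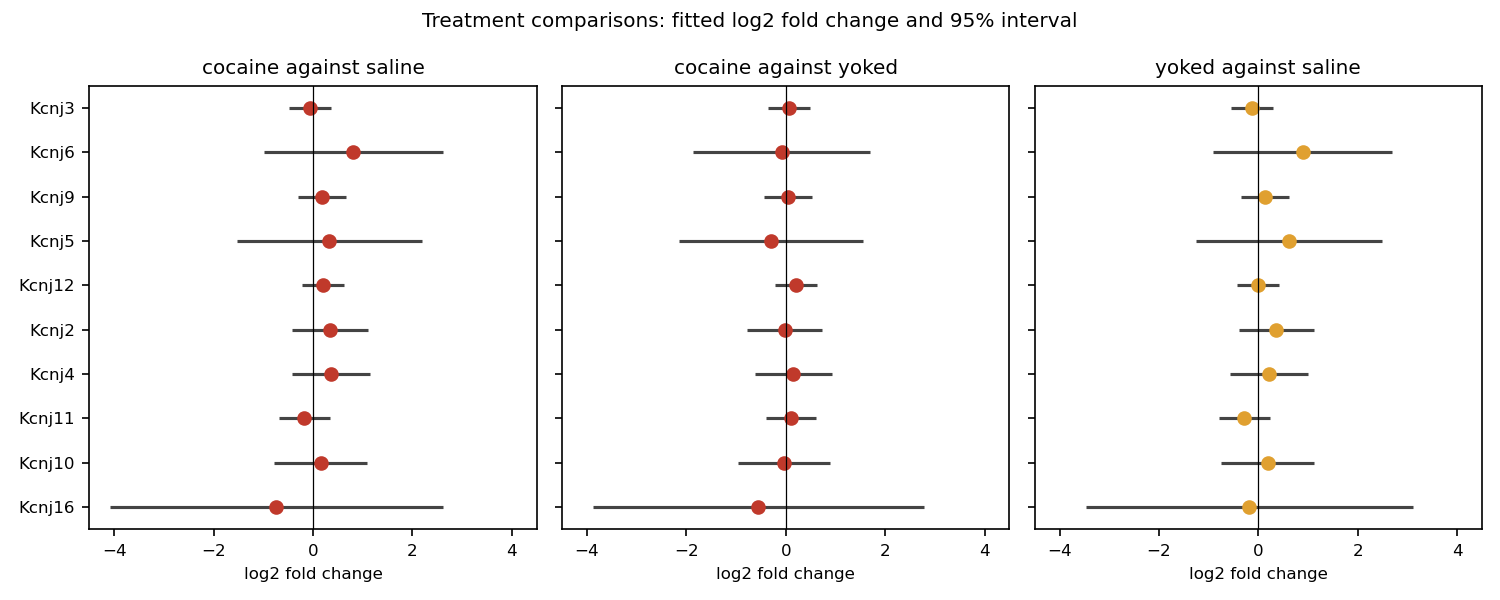
Fitted log2 fold change (points) and 95% interval (lines) of each channel gene for cocaine against saline, cocaine against yoked and yoked against saline, from 1 edgeR fit of the 9 immunopurified libraries. Every interval crosses 0, and those of Kcnj3, Kcnj9, Kcnj12 and Kcnj11 are the narrowest, at 0.42 to 0.51 to each side.

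Cocaine self-administration against yoked controls compared 2 groups with the same lane number. No member passed here either: edgeR called 0 of 10, against 0.0% of genes, and 0 had an unadjusted p under 0.05, against 2.61%, while DESeq2 called 0. Log2 fold changes were above 0 in 5 members and below 0 in 5, with a median of 0.012 beside 0.0011 over all genes tested. The libraries of the groups overlapped in all 10 members, where 6.78% of genes showed no overlap. Kcnj12 again had the smallest p, at 149 ± 36.3 CPM in cocaine libraries and 132 ± 14.6 CPM in yoked libraries (log2 fold change 0.21, −0.21 to 0.64, adjusted p = 0.9997 in edgeR, Benjamini-Hochberg), and without the 3 libraries numbered 2 its value was 0.012. For Kcnj3 the averages were 76.3 ± 10.6 CPM in cocaine libraries and 75.4 ± 4.72 CPM in yoked libraries (log2 fold change 0.059, −0.37 to 0.48). Kcnj9 averaged 20.9 ± 4.11 and 20.8 ± 2.36 CPM for cocaine and yoked (0.041, −0.44 to 0.52), and Kcnj11 averaged 21.3 ± 0.976 and 20.2 ± 2.80 CPM (0.11, −0.40 to 0.62).

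Kcnj6 averaged 5.60 ± 6.40 CPM in cocaine libraries and 6.48 ± 6.32 CPM in yoked libraries, and its log2 fold change of −0.084 was −0.60 without the 3 libraries numbered 2. For Kcnj2 the log2 fold change was −0.016 (−0.77 to 0.74), for Kcnj4 it was 0.16 (−0.62 to 0.93) and for Kcnj10 it was −0.034 (−0.96 to 0.90). These intervals allow changes of up to 1.67-fold, 1.91-fold and 1.86-fold upwards. Kcnj5 and Kcnj16 had values of −0.30 and −0.55, with intervals reaching 1.86 and 3.33 to each side.

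Yoked controls against saline self-administration gave 0 members called by edgeR, against 0.0% of genes, and 0 with an unadjusted p under 0.05, against 2.18%, while DESeq2 called 0. Log2 fold changes were above 0 in 6 members and below 0 in 4, with a median of 0.16 beside −0.014 over all genes tested. All 10 members had overlapping groups, where 7.05% of genes did not. Kcnj11 had the smallest p, at 20.2 ± 2.80 CPM in yoked libraries and 24.4 ± 7.26 CPM in saline libraries (log2 fold change −0.28, −0.79 to 0.23, adjusted p = 0.9993 in edgeR, Benjamini-Hochberg), a difference within the spread of the saline group, whose library 2 lay at 32.7 CPM. Without the 3 libraries numbered 2 the value was 0.10. Kcnj12 averaged 132 ± 14.6 CPM in yoked libraries and 131 ± 16.9 CPM in saline libraries, with a fold change between 0.743 and 1.33. Kcnj6 averaged 6.48 ± 6.32 CPM in yoked libraries and 3.35 ± 2.71 CPM in saline libraries, a log2 fold change of 0.90 (−0.90 to 2.70), and of 0.60 without the libraries numbered 2. For Kcnj3 the log2 fold change was −0.13 (−0.55 to 0.30), for Kcnj9 0.14 (−0.34 to 0.62), for Kcnj2 0.36 (−0.40 to 1.11) and for Kcnj4 0.21 (−0.57 to 0.99). For Kcnj10 it was 0.19 (−0.75 to 1.12), and Kcnj5 and Kcnj16 had values of 0.62 and −0.18 with intervals reaching 1.87 and 3.29 to each side. The glial and Kir2 members thus differed by less than the spread between libraries.

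A single test for any difference among the 3 groups called 0 of 10 members (0.0% of genes), with 0 at an unadjusted p under 0.05 against 2.8% of genes, and DESeq2's likelihood ratio test called 0. The smallest adjusted p of a member in that edgeR test, with Benjamini-Hochberg adjustment, was 0.9995.

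The partners and regulators of these channels were taken from lists of G protein subunits, PIP2 enzymes and sulfonylurea receptors. Of 5 Gi/o alpha subunits, 0 counted as higher for cocaine, 0 for yoked and 1 for saline, beside 11.7%, 12.1% and 12.2% of measured genes, and 0 counted as lower in any group. The 1 was Gnai2, which measured 223, 188 and 235 CPM for cocaine libraries 1 to 3, 181, 277 and 253 CPM for yoked libraries 1 to 3, 201, 288 and 214 CPM for saline libraries 1 to 3 and 95.8 CPM in the input. All 9 libraries lay above the input, and cocaine library 2 and yoked library 1 fell just short of 2-fold. The median log2 ratio of the list in saline libraries was 0.57 beside −0.13 over all measured genes. Of 14 beta and gamma subunits, the parts that open GIRK channels, 4 were higher and 4 lower for cocaine, 3 and 5 for yoked, and 3 and 5 for saline, beside 12.2% higher and 23.1% lower of measured genes in saline libraries. The 3 in saline libraries were gamma subunits, which also counted in the other groups: Gng4 averaged 281 ± 21.3 CPM in saline libraries and 44.2 CPM in the input, 6.36-fold higher, Gng3 was 5.51-fold and Gng2 4.21-fold higher. The 5 lower genes in saline libraries were Gng11, Gng7, the gamma subunit paired with Golf in spiny neurons, 6.54-fold lower, Gnb4, Gng8 and Gng12. Gng11 measured 2.03, 0.255 and 0.356 CPM for saline libraries 1 to 3 and 15.6 CPM in the input, 17.8-fold lower, and 51.2-fold lower without saline library 1. For cocaine Gng13 counted as higher as well, and Gng8 did not count as lower. Gnb1, the abundant beta subunit of neurons, averaged 2750 ± 120 CPM in saline libraries and 1423 CPM in the input, 1.93-fold higher. Genes named here besides the highest and lowest ratio of a list were chosen after their values were seen.

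Of 9 enzymes that make or break down PIP2, 2 were higher for cocaine, 2 for yoked and 3 for saline, and 1 was lower in each group, beside the same shares of measured genes. Pip5k1b, a kinase that makes it, was the highest at 83.8 ± 17.9 CPM in saline libraries and 5.04 CPM in the input, 16.6-fold higher. Plcb4, a phospholipase C that Gq-coupled receptors activate to split PIP2, was 5.69-fold higher for cocaine, 4.40-fold for yoked and 4.76-fold for saline. Its relative Plcb3 counted as higher in saline alone: it measured 10.5, 4.85 and 12.6 CPM for cocaine libraries 1 to 3, 9.60, 1.84 and 12.2 CPM for yoked libraries 1 to 3, 6.52, 9.39 and 9.41 CPM for saline libraries 1 to 3 and 3.08 CPM in the input. Library 2 fell short of 2-fold in cocaine and lay below the input in yoked. Plcb1 was the 1 gene that was lower in each group, at 70.4 ± 41.5 CPM in saline libraries and 424 CPM in the input, 6.02-fold, and 9.12-fold without saline library 1.

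**Figure D4:**
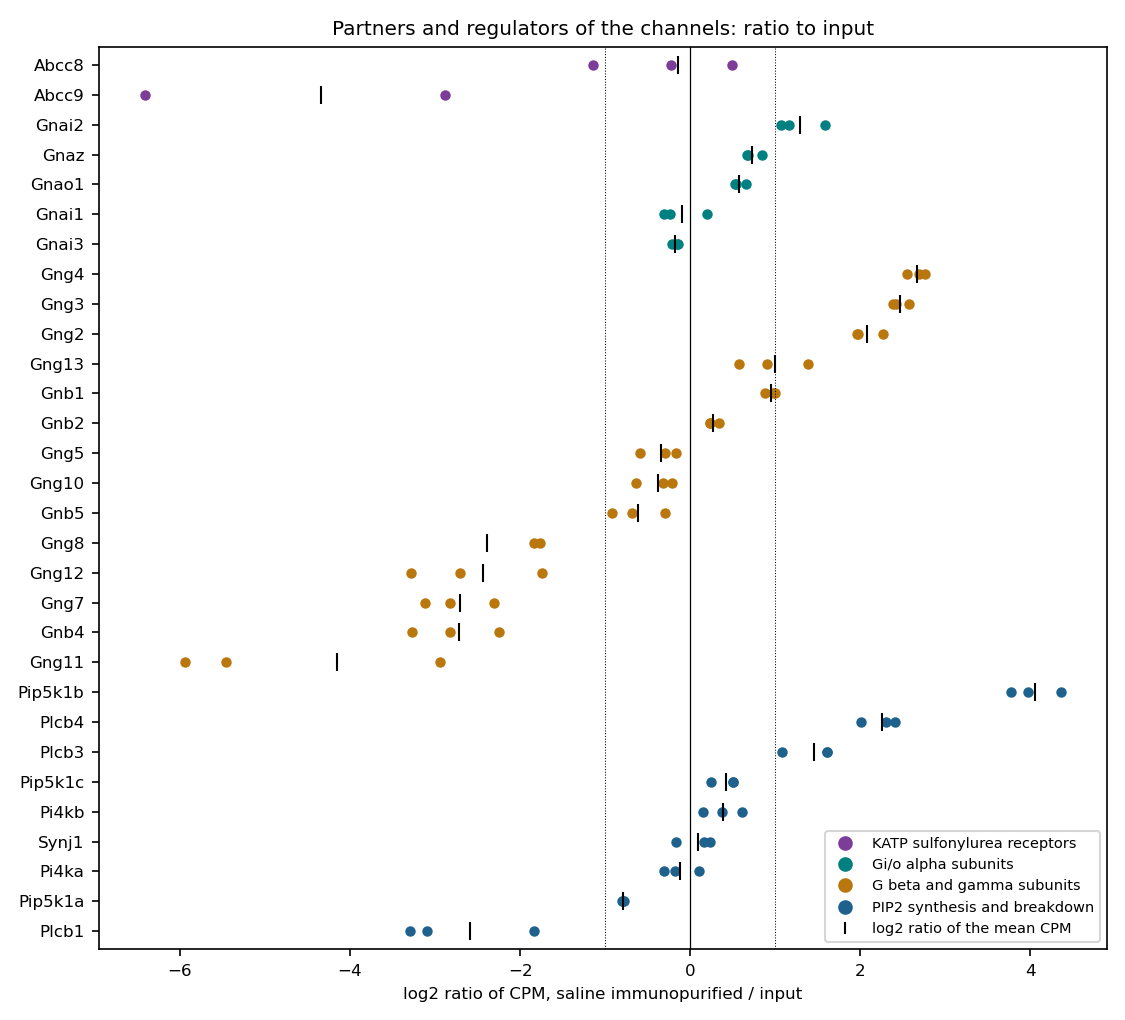
Log2 ratio of CPM to the input in the 3 saline immunopurified libraries (points) for sulfonylurea receptors, Gi/o alpha, beta and gamma subunits and PIP2 enzymes; ticks mark the log2 ratio of the mean CPM and dotted lines 2-fold. Pip5k1b, Gng4, Gng3, Plcb4 and Gng2 lay highest, and a library with 0 counts has no point.

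Between treatment groups none of these partner genes was called in edgeR. In cocaine against saline, 3 of 5 Gi/o alpha subunits were above 0 and 2 below (median log2 fold change 0.030), 6 of 14 beta and gamma subunits above and 8 below (−0.012), and 5 of 9 PIP2 enzymes above and 4 below (0.059), beside 0.0049 over all genes tested. Gnai3 and Gnaz were the 2 alpha subunits with an unadjusted p under 0.05 in that comparison, with log2 fold changes of −0.57 ± 0.22 and 0.67 ± 0.26 (SE; adjusted p = 0.850 for both, edgeR, Benjamini-Hochberg), where 5.28% of genes had such a p. Gnaz measured 83.6, 178 and 90.3 CPM for cocaine libraries 1 to 3, 74.1, 81.9 and 90.9 CPM for yoked libraries 1 to 3 and 72.9, 81.4 and 71.9 CPM for saline libraries 1 to 3. Cocaine library 2 stood far above the rest, and without it the log2 fold change against saline was 0.21. Gnai3 measured 32.8, 19.95 and 39.8 CPM for cocaine libraries 1 to 3, 44.1, 52.8 and 39.6 CPM for yoked libraries 1 to 3 and 46.5, 47.1 and 44.7 CPM for saline libraries 1 to 3. Cocaine library 2 was the lowest of all, and without it the value against saline was −0.34. In cocaine against yoked, which shares the cocaine libraries, Gnai3 and Gnaz had log2 fold changes of −0.53 ± 0.22 and 0.56 ± 0.25 (adjusted p = 0.9997 for both in edgeR), and of −0.31 and 0.090 without cocaine library 2. Gng7 had the smallest p of the beta and gamma subunits against saline, at 0.49 ± 0.22 (SE) for cocaine (adjusted p = 0.850) and 0.52 ± 0.22 (SE) for yoked (adjusted p = 0.9993, edgeR, Benjamini-Hochberg), comparisons that share the saline libraries. Without saline library 2 these were 0.31 and 0.35, and without yoked library 3 the yoked value was 0.35. The general markers of spiny neurons, cells that use Gng7, were above 0 in 7 of 10 genes for cocaine and in 9 of 10 for yoked against saline. Over all genes tested, 7582 and 7183 of 14989 were above 0. Oligodendrocyte markers were above 0 in 8 and 10 of 10 genes, and cholinergic markers in 3 and 6 of 10. Astrocyte markers were above 0 in 8 and 5 of 10, and cortical glutamatergic markers in 4 and 0 of 5 tested. The shift was thus seen in oligodendrocyte markers as well but not in every list, and the part of spiny neurons in Gng7 was not tested. In cocaine against yoked, 7 beta and gamma subunits were above 0 and 7 below (median −0.0059), and 6 PIP2 enzymes above and 3 below (0.12), beside 0.0011 over all genes tested. In yoked against saline, 5 beta and gamma subunits were above 0 and 9 below (−0.037), and 2 PIP2 enzymes above and 7 below (−0.085), beside −0.014 over all genes tested. Pip5k1b had the smallest p of the PIP2 enzymes there, at −0.37 ± 0.19 (SE; adjusted p = 0.9993, edgeR, Benjamini-Hochberg), and −0.20 without saline library 2.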

How the data were processed

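Ribosome-bound RNA of 9 immunopurified libraries and total RNA of 1 input library were analysed from the deposited tables of raw counts, which list whole reads for each gene symbol and carry no normalisation. The submitters' processing notes name STAR 2.0.0e, HTSeq (no version given) and mm10. Annotation, strand setting and filters are not given in the sources used here, so reads of a gene and of its antisense partner may be mixed. Reads not assigned to a gene were left out of library totals: 7.04 to 11.2% of all reads in immunopurified libraries lay outside genes and 36.3 to 57.1% were not uniquely aligned (15.2% and 35.4% in the input). Coordinates come from RefSeq's GRCm38.p6 table, which matched all 10 members.

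CPM were counts over total gene counts. Treatment groups were compared with the quasi-likelihood test of edgeR 4.0.16 in R 4.3.3 (robust fit, TMM scaling, factors from 0.949 to 1.06, minimum count 10 and total 15 in filterByExpr), on all 9 immunopurified libraries with 6 residual degrees of freedom, and Benjamini-Hochberg adjustment over 14989 genes (called under 0.05). Fold changes are the fitted, TMM-scaled ones, and levels are plain CPM. Ratios to the input used genes with at least 20 counts in the input or in the mean immunopurified library. Counting intervals are exact at the 95% level and, like the floor of 3 counts, cover counting error only. Alternatives were DESeq2 1.42.0, its size factors, no filter, a term for replicate number, left-out libraries, TMM scaling, a pseudocount of 0.5 CPM, no minimum count and a 4-fold rule. The edgeR step was tested on simulated counts. Members and lists were chosen with earlier results of these data known. All 10 members are named in each comparison; of other lists, called genes or else that with the smallest p, and the highest and lowest ratio; of marker lists, the gene with the highest ratio, which for the cholinergic list is not reported here. Protein sequences were not used here.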

Additional observations from a re-analysis of the deposited data

How the results depend on the processing

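Of the counts of members called, all 70 alternative values stayed at or near the main ones, with 0 members called between treatment groups under every alternative run. Without the filter on low counts edgeR called 60 genes in cocaine against saline, 27 in cocaine against yoked, 18 in yoked against saline and 98 in the test for any difference, against 0 with it, and none was a member. DESeq2 called 0, with 987, 538, 471 and 621 genes at an unadjusted p under 0.05. Of the planned ratios of members to the input 47 values moved by less than the spread between libraries and 3 moved further, all of Kcnj16 (−3.15): it was −2.13 with a pseudocount of 0.5 CPM, and leaving out 1 saline library gave −3.97 to −2.57. No treatment fold change of a member was called, and 52 values had the opposite sign while 368 did not; the cause was not tested.

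Leaving out 1 library turned the sign of these log2 fold changes. In cocaine against saline they ran from −0.20 to 0.17 for Kcnj3, −0.58 to 0.82 for Kcnj5, −0.80 to 1.63 for Kcnj6, −0.027 to 0.36 for Kcnj12, −0.18 to 0.69 for Kcnj10, −1.32 to 0.020 for Kcnj16 and −0.29 to 0.086 for Kcnj11. In cocaine against yoked they ran from −0.084 to 0.16 for Kcnj3, −1.21 to 0.16 for Kcnj5, −1.71 to 1.04 for Kcnj6, −0.084 to 0.16 for Kcnj9, −0.20 to 0.20 for Kcnj2, −0.047 to 0.38 for Kcnj4, −0.028 to 0.36 for Kcnj12, −0.33 to 0.37 for Kcnj10, −1.12 to 0.82 for Kcnj16 and −0.0047 to 0.23 for Kcnj11. In yoked against saline they ran from −0.25 to 0.11 for Kcnj3, −0.20 to 1.71 for Kcnj6, −0.020 to 0.34 for Kcnj4, −0.096 to 0.12 for Kcnj12, −0.21 to 0.73 for Kcnj10 and −1.55 to 0.57 for Kcnj16. Partner genes were added to these alternatives after the data had been seen: without the 3 libraries numbered 2, Gnaz was 0.25 and Gnai3 −0.34 in cocaine against saline, against 0.67 and −0.57. Without all 3 libraries numbered 2 the sign turned in cocaine against saline for Kcnj3 (0.031), Kcnj5 (−0.51), Kcnj6 (−0.00024), Kcnj12 (−0.054) and Kcnj11 (0.099), in cocaine against yoked for Kcnj3 (−0.078), Kcnj2 (0.29) and Kcnj11 (−0.0018), and in yoked against saline for Kcnj3 (0.11), Kcnj9 (−0.013) and Kcnj11 (0.10). Kcnj12 in yoked against saline, −0.0061, was 0.00021 with DESeq2 size factors or DESeq2 and 0.0046 without the filter.

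Libraries with the same replicate number correlated at 0.049 to 0.29 in their deviations from the group means over 9 pairs, 6 of them over 0.1, and others at −0.19 to 0.087; in 16 of 18 cases a library correlated best with its own number. This is a hint from the data and not the design, so the numbers were not taken to pair the samples. With the replicate block 0 members were called, and 967, 448 and 398 genes had an unadjusted p under 0.05 in the 3 comparisons, against 791, 391 and 327. Under the replicate block Kcnj16 was 0.22 in cocaine against saline and 0.50 in cocaine against yoked, where Kcnj10 was 0.054. The low counts of Kcnj5 and Kcnj16, and the 1 input library, limit the precision of these values.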

Other observations

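Proteins that anchor or traffic inward rectifiers formed a list of 11 genes. In saline libraries Apba1, an adaptor protein of neuronal trafficking, was the 1 gene at least 2-fold higher in every library, at 344 ± 0.809 CPM in saline libraries and 147 CPM in the input (SD, n = 3). By the same rule 1 gene was higher and 2 were lower in each treatment group, beside 12.2% higher and 23.1% lower of measured genes in saline libraries. Flna, an actin cross-linker, was 9.25-fold lower and Dlg1 4.15-fold lower, and the median log2 ratio of the list was −0.57 beside −0.13 over all measured genes. None of the 11 was called between treatment groups in edgeR, and 0 had an unadjusted p under 0.05.

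The other genes of the channel family had low counts. Kcnj8, the pore of vascular ATP-sensitive channels, had 0 to 6 counts in immunopurified libraries and 48 in the input. It counted as at least 2-fold lower in each group, beside 22.3%, 21.9% and 23.1% of measured genes for cocaine, yoked and saline. Kcnj13 had 9, 45 and 22 counts for cocaine libraries 1 to 3, 17, 0 and 4 for yoked libraries, 13, 0 and 30 for saline libraries and 6 for the input. For cocaine it passed the minimum count only through the mean of the cocaine libraries themselves. There it counted as at least 2-fold higher, at a log2 ratio of 1.96, beside 11.7% of measured genes. In yoked and saline it was below the minimum count. Its level was 0.367, 0.598 and 0.746 CPM for cocaine libraries, 0.309, 0 and 0.146 CPM for yoked, 0.508, 0 and 0.713 CPM for saline, and 0.147 CPM in the input. The cocaine count therefore does not set that group apart. Of these genes only Kcnj13 passed the filter for the treatment tests, and edgeR did not call it. Kcnj14 had 74 counts in yoked library 2 and 0 to 7 in the other immunopurified libraries, with 0 in the input, a difference carried by 1 library. Kcnj1 and Kcnj15 had at most 2 counts in any library.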
